A study of Homo sapiens with 9 samples.

Results

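The genes of the proteasome and its regulators were followed through a glioblastoma invasion model. They are the 48 protein-coding genes, of 58735 genes in the expression table, whose symbols run from PSMA to PSMG followed by a number. GBM43, a cell line derived from a glioblastoma, was grown in devices of hyaluronic acid gel, a sugar polymer abundant in the matrix of the brain, through which cells can migrate. Poly-A RNA was sequenced from 9 libraries in 3 groups. Core libraries (n = 3) came from cells that had stayed at the seeding site of control devices, and invasive libraries (n = 3) from the cells that had migrated into the gel, the fractions being cut apart with a scalpel. The labels say of the control devices both that they received plain culture medium and that they received the DMSO vehicle. MK801 libraries (n = 3) came from devices given 50 µM MK801, which blocks the channel of NMDA-type glutamate receptors. Because few of those cells had invaded, their core and invasive cells were pooled, so in each comparison with the MK801 group the drug and the mix of fractions cannot be told apart. All groups came from the same line, and whether the 3 libraries of a group are separate cultures is not stated, so the spread behind each p-value is that of these libraries and may be technical.

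The proteasome degrades proteins tagged with ubiquitin. Its barrel-shaped core particle has outer rings of alpha subunits (PSMA genes) and inner rings of beta subunits (PSMB genes), of which PSMB5, PSMB6 and PSMB7 carry the constitutive proteolytic sites. In immune cells, and in other cells exposed to interferon, PSMB8, PSMB9 and PSMB10 take their places and form the immunoproteasome, which favours peptides suited to MHC class I presentation. A regulatory particle of ATPases (PSMC genes) and other subunits (PSMD genes) recognises, deubiquitinates and unfolds substrates, and separate proteins activate (PSME), inhibit (PSMF1) or help to assemble the complexes (PSMG and some PSMD genes).

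Values are FPKM, fragments per kilobase of gene length and per 1e6 fragments of a library total that the authors used. That total was 1.10 to 1.23 times the fragments assigned to genes in core, 0.788 to 1.06 times in invasive and 0.769 to 1.19 times in MK801 libraries. A lower ratio raises every FPKM of a library, so separations between groups in FPKM depend on it. The libraries held 15.6 to 54.4 M fragments assigned to genes (M for 1e6). They differed beyond depth: at equal depth 20322 to 21414 genes were detected in core, 15975 to 19140 in invasive and 15161 to 21517 in MK801 libraries, and the fragment-weighted GC content of transcripts ran from 49.7 to 51.0% (core), 52.7 to 54.6% (invasive) and 50.4 to 54.4% (MK801). MK801 replicate 1 had the fewest genes detected and MK801 replicate 3 the most, so the MK801 group spans the range of both control fractions. Of 10 glioma markers, 4 (VIM, CD44, EGFR and SOX2) reached 1 FPKM, whereas GFAP, an astrocyte filament gene, and NES stayed below it and OLIG2 was at 0 in all 9 libraries.

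Nearly all proteasome genes were expressed. Of the 48, 42 reached 1 FPKM in each of the 9 libraries and 44 passed the filter for testing, at least 1 FPKM in at least 3 libraries. The 4 that did not pass were PSMA2, PSMA6, PSMA8 and PSMB11. PSMB4, a structural beta subunit, had the highest mean over the 9 libraries at 137 FPKM, followed by the alpha subunit PSMA7 at 119 and the ATPase PSMC4 at 111. The regulatory particle's scaffold subunit PSMD2 led the non-ATPase class at 100.4 FPKM. Among tested members the lowest means were those of PSMD9, a chaperone of base assembly, at 1.26, the core-particle chaperone PSMG4 at 2.00 and the ATPase PSMC6 at 3.12 FPKM. Subunits that stand in the complex in equal number thus had transcript levels that differed widely: in the constitutive beta class the mean ranged from 28.8 FPKM for PSMB2 to the level of PSMB4, in the ATPase ring from PSMC6 to PSMC4, and in the non-ATPase class from 5.502 FPKM for PSMD14 to PSMD2. The levels were also divided by the length of each gene's principal transcript in place of the length in the table. Over all members these kept a Spearman correlation of 0.939 with the FPKM (n = 48 genes from the same libraries). Single places depended on the length: PSME3 went from rank 15 to rank 2 and PSMG4 from rank 43 to rank 28. By the principal transcript the lowest ATPase was PSMC1 (7.59, PSMC6 10.7) and the lowest non-ATPase PSMD1 (13.1, PSMD14 21.7). The highest non-ATPase was then PSMD8 (179.5, PSMD2 158.7).

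The 2 least abundant genes among those that every proteasome needs share their exons with other genes. PSMA6 was at 0.102 to 0.421 FPKM and PSMA2 at 0.157 to 0.655 FPKM, although both encode obligate alpha subunits. A gene on the same strand covers 81.0% of the principal transcript of PSMA6 (AL121594.1) and 52.5% of that of PSMA2. Same-strand sharing was 53.2% for PSMA1, 45.3% for PSMB10 (with AC040162.1) and 43.8% for PSMD9. These 5 were the only members with at least 40% shared, and each had the lowest or second-lowest level of its class except PSMA1, which came next in the alpha ring. How fragments in shared exons were counted is not given in the sources used here, so the levels of these 5 genes are uncertain and comparisons between groups rest on their unshared bases alone if such fragments were dropped. On the opposite strand NRDE2 covers most of PSMC1 (82.1%), at 0.3503 to 0.813 FPKM, and whether counting used strand is not given either. The part of shared exons in the low levels was not tested.

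**Figure D1:**
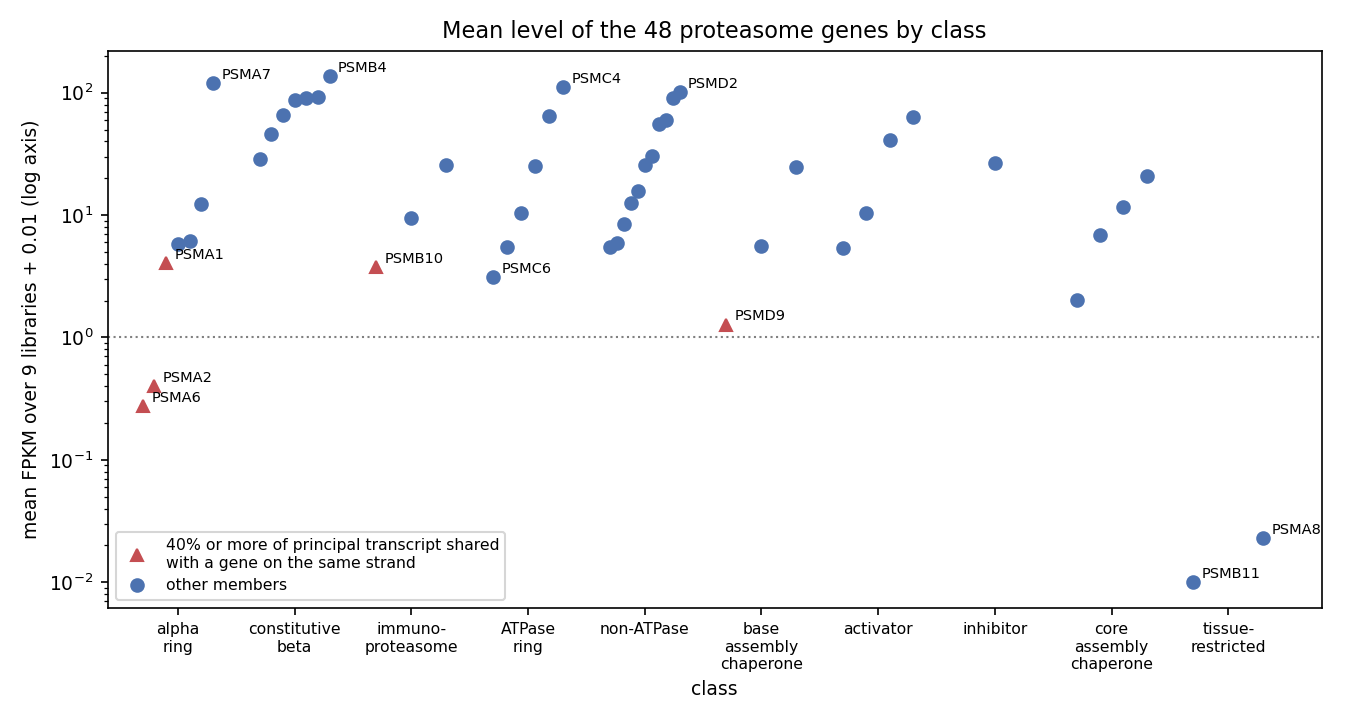
Mean FPKM over the 9 libraries (log axis, 0.01 added so that a gene at 0 can be drawn) of each of the 48 members, arranged by class; the dotted line marks 1 FPKM. Red triangles are the 5 members with at least 40% of the principal transcript shared with a gene on the same strand, which lie at or near the bottom of their classes.

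The 2 tissue-restricted members were at background. PSMB11, the beta subunit of the thymus proteasome, had 0 fragments in all 9 libraries, which allows at most 0.1005 FPKM in the library with the highest limit (3 fragments, for counting error only). PSMA8, the alpha subunit of the testis proteasome, was at 0.117 FPKM in core replicate 3, which is 5 fragments, and at 0 in the other 8 libraries, where the limit was at most 0.112 FPKM. Of 4 marker genes of testis and thymus, 0 reached 1 FPKM in any library.

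The first comparison asked how proteasome transcripts of invasive cells differed from those of core cells. Most beta subunits, the 3 immunoproteasome subunits, 3 of 4 activators and the inhibitor had higher FPKM in all 3 invasive libraries than in any core library, whereas the ATPase PSMC6 and the alpha subunits PSMA3 and PSMA4, which had the 3 largest negative differences, were lower in all 3. Of the 44 tested members, 23 lay wholly above the core group, against 32% of all 11845 genes tested, and 11 lay wholly below it, against 32.8% of all genes. In the fit of all 9 libraries (limma on log2(FPKM + 1), Benjamini-Hochberg over all genes), 0 of 44 members passed an adjusted p of 0.05, and 0% of all genes did. At an unadjusted p under 0.05 there were 12 members higher and 5 lower, against 20.3% and 17.4% of all genes, and limma-voom on fragments recovered from the FPKM also called 0 genes. The median log2 difference of the 44 members was 0.34, with 30 above 0 (49.1% of all genes were), beside -0.02 over all genes tested. This median was 0.084 after quantile normalization, 0.059 with the number of detected genes as a covariate, and 0.037 in limma-voom on the recovered fragments, which are scaled to gene totals and move the median of all genes to -0.36, so that relative to all genes the members stood at 0.39 there and at 0.37 in the 9-library fit. Other limma-voom values are printed without subtracting that shift unless stated. When only genes with at least 5 FPKM in at least 3 libraries were kept, the members' median was 0.49, beside 0.24 over all genes kept. In this bulk RNA, fewer cells of a kind and less RNA per cell cannot be told apart.

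The 9-library fit shares 1 estimate of the spread with the MK801 libraries, and the count depended on which libraries entered. With the core and invasive groups fitted alone, 29 members passed, 20 higher (against 26.3% of all genes) and 9 lower (against 25.9%), so the members' share either way was 65.9% beside 52.2% of all genes. Without MK801 replicate 1 the fit of the remaining libraries called 25 members (39.9% of all genes), and without MK801 replicate 3 it called 23 (42.1% of all genes). It called 0 members without MK801 replicate 2 (0.00853% of all genes), and 0 without MK801 replicate 1 and invasive replicate 2 (0.112% of all genes). With each library's trend over gene GC content removed and the 2 groups fitted alone, 9 members passed, all higher (against 9.46% of all genes), and 0 passed as lower (against 7.62%). Those 9 were PSMB2, PSMB3, PSMB8, PSMB9, PSMA5, PSMD1, PSME1, PSME3 and PSMF1.

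**Figure D2:**
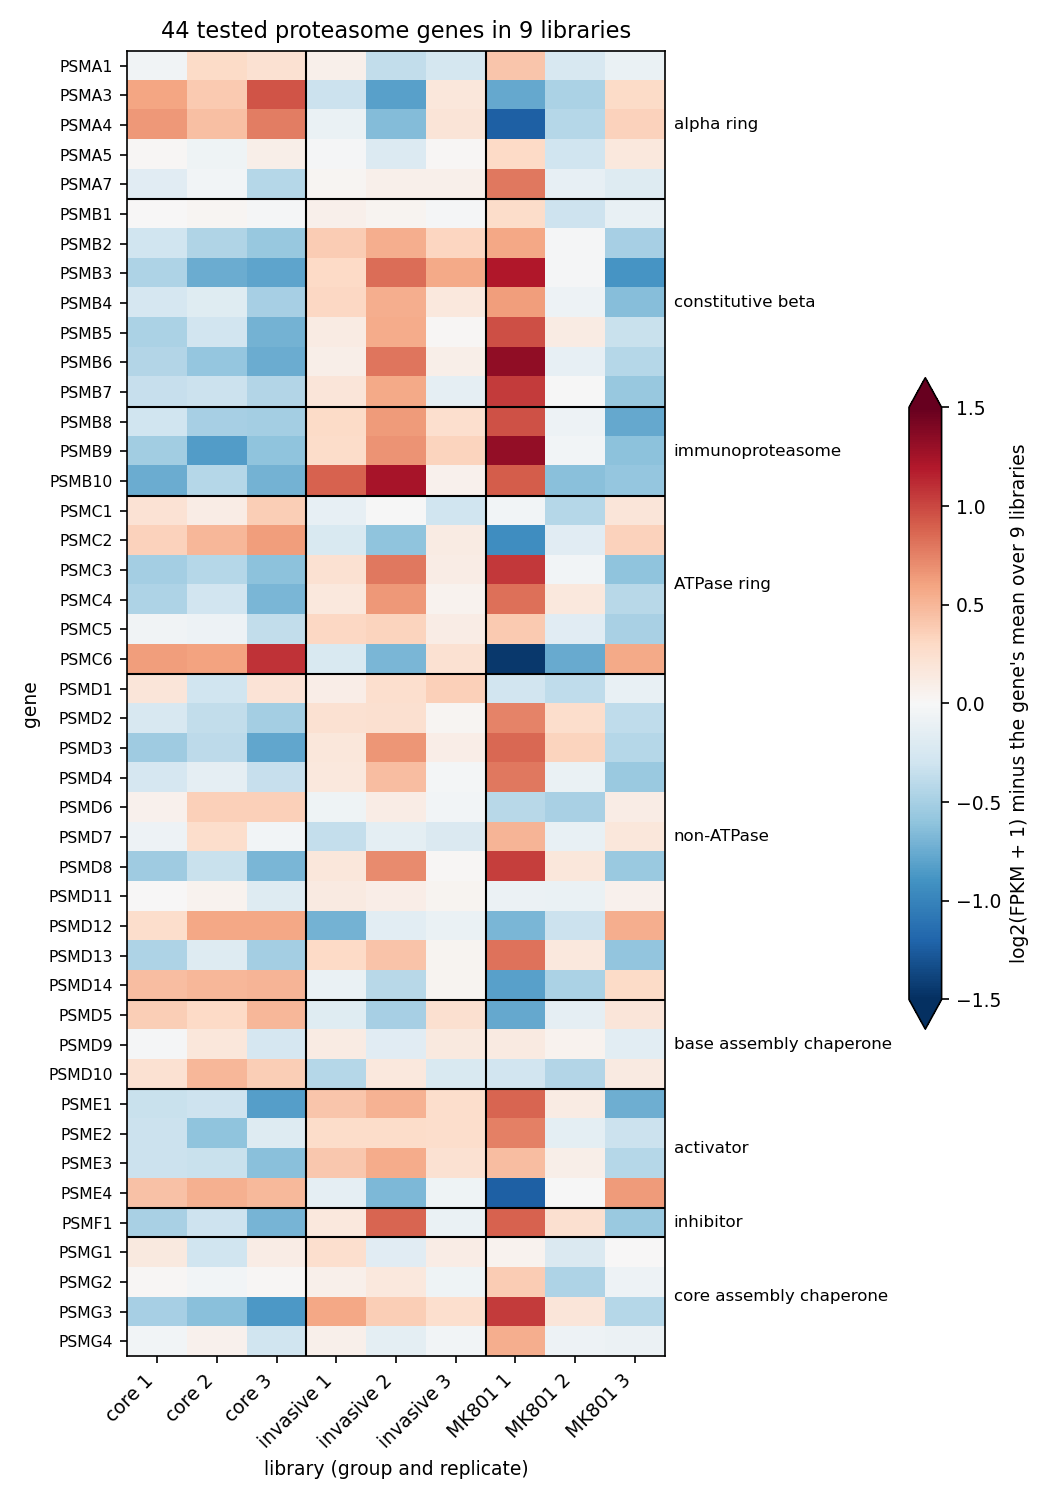
Each tested member (rows, grouped by class) in each of the 9 libraries (columns), coloured by log2(FPKM + 1) minus that gene's mean over the 9 libraries. Most constitutive beta rows and the immunoproteasome rows are blue in core and red in invasive libraries. PSMB1 is near its mean in both fractions, and PSMB7 is below its mean in invasive replicate 3. Several alpha-ring and ATPase rows are the reverse, and MK801 replicate 1 shows the deepest colours of its group in both directions.

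The immunoproteasome subunits had higher levels in the invasive than in the core fraction, and their groups did not overlap, which also held for 32% of all genes. PSMB8 (ENSG00000204264, chromosome 6, 32840717 to 32844703 on GRCh38), which replaces PSMB5, was at 18.9, 16.4 and 16.2 FPKM in the core libraries, 28.99, 37.4 and 28.2 in the invasive ones and 46.8, 22.3 and 13.5 with MK801. PSMB9 (ENSG00000240065, chromosome 6, 32844136 to 32859585), which replaces PSMB6, was at 5.51, 4.21 and 5.16 FPKM in the core libraries, 10.3, 13.9 and 10.8 in the invasive ones and 22.3, 8.10 and 5.08 with MK801. PSMB10 (ENSG00000205220, chromosome 16, 67934502 to 67937087), which replaces PSMB7, was at 1.45, 2.04 and 1.51 FPKM in the core libraries, 6.57, 8.66 and 3.27 in the invasive ones and 6.67, 1.64 and 1.74 with MK801. For each of the 3 genes the lowest invasive library exceeded the highest core library, and the MK801 group overlapped both, with replicate 1 above the invasive range for PSMB8 and PSMB9 and within it for PSMB10, and replicate 3 within or below the core range for all 3.

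On the log2(FPKM + 1) scale, which understates differences of weakly expressed genes, PSMB10 differed most between invasive and core libraries (log2 difference 1.35, SE 0.42, adjusted p = 0.106). Its mean was 6.17 ± 2.72 FPKM in invasive against 1.67 ± 0.325 in core libraries (SD, n = 3), a 3.70-fold ratio that rests on 47 to 289 fragments per library. PSMB9 followed (log2 difference 1.08, SE 0.41, adjusted p = 0.111), with 11.7 ± 1.97 against 4.96 ± 0.673 FPKM. PSMB8, the most abundant of the trio, was at 31.5 ± 5.08 against 17.2 ± 1.49 FPKM (log2 difference 0.83, SE 0.37, adjusted p = 0.129). None of the 3 passed the threshold in the 9-library fit, and all 3 did with the core and invasive groups fitted alone (adjusted p = 0.00570, 0.00327 and 0.00563 for PSMB8, PSMB9 and PSMB10). Their median difference of 1.08 was above 0 under each scaling tried and stood at 1.12 after quantile normalization and 0.91 in limma-voom, but at 0.59 with the GC trend removed and 0.30 with the number of detected genes as a covariate.

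Markers of immune cells, which hold immunoproteasome constitutively, were mostly at or near 0. Of 10 immune marker genes, 1 reached 1 FPKM, CSF1R, a macrophage growth factor receptor, at 2.46, 1.79 and 1.71 FPKM in the core libraries, 4.71, 5.74 and 3.98 in the invasive ones and 4.55, 2.29 and 1.19 with MK801. PTPRC, which encodes CD45, was at most 0.0699 FPKM, and TYROBP was at 0 in every library. Summed over the 10 genes the core libraries held 1.93 to 3.12 FPKM, the invasive ones 4.35 to 6.01 and the MK801 ones 2.90 to 5.35, so it was higher where the immunoproteasome subunits were, mainly through CSF1R. The sum of 4 endothelial markers was 0.768 to 1.23 in core and 1.63 to 4.597 in invasive libraries, through CDH5. The part of either list in the result was not tested.

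**Figure D3:**
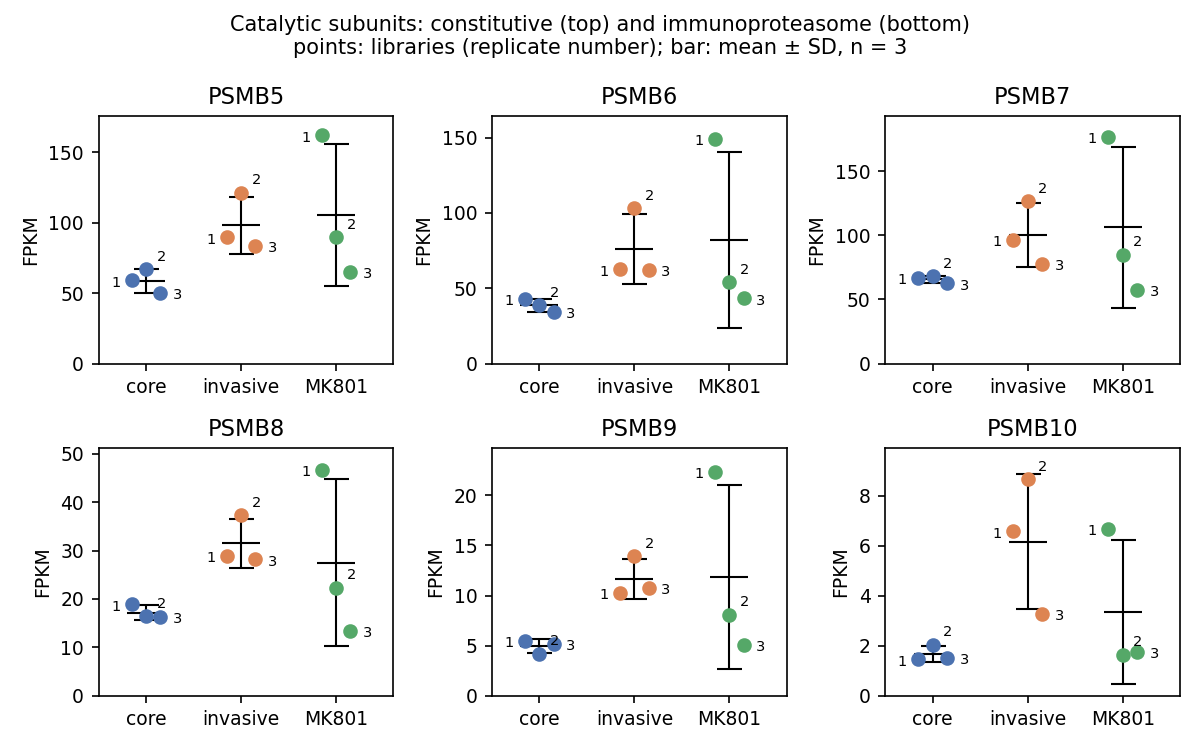
FPKM of the 3 constitutive catalytic subunits (top) and of the immunoproteasome subunits that replace them (bottom) in each library, with the replicate number beside each point and the mean ± SD of n = 3 as bars. In every panel the 3 invasive points lie above the 3 core points, and MK801 replicate 1 is at the top of its group. The MK801 points spread over both fractions, except for PSMB6, where all lie above the core points.

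The constitutive counterparts were higher in the invasive fraction as well. PSMB5 (ENSG00000100804, chromosome 14, 23016543 to 23035230), the chymotrypsin-like subunit that proteasome inhibitor drugs chiefly target, was at 59.0, 66.9 and 49.9 FPKM in the core libraries, 89.5, 121 and 83.3 in the invasive ones and 162, 89.9 and 65.1 with MK801. PSMB6 (ENSG00000142507, chromosome 17, 4796144 to 4798503), the caspase-like subunit, was at 42.9, 38.7 and 34.5 FPKM in the core libraries, 62.5, 103 and 62.3 in the invasive ones and 149, 53.9 and 43.3 with MK801. PSMB7 (ENSG00000136930, chromosome 9, 124353466 to 124415444), the trypsin-like subunit, was at 66.6, 67.9 and 62.4 FPKM in the core libraries, 96.1, 127 and 77.5 in the invasive ones and 177, 84.8 and 57.1 with MK801. Core and invasive libraries did not overlap for any of the 3, and the log2 differences were 0.72 (SE 0.33), 0.92 (SE 0.42) and 0.57 (SE 0.38) for PSMB5, PSMB6 and PSMB7, with limma adjusted p of 0.136, 0.134 and 0.2505. With the number of detected genes as a covariate the difference of PSMB7 turned to -0.15, whereas those of PSMB5 and PSMB6 stayed above 0.

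A ratio within a library does not depend on the library total. The ratio of PSMB8 to PSMB5 was 0.320, 0.246 and 0.325 in core, 0.324, 0.308 and 0.338 in the invasive libraries and 0.289, 0.248 and 0.207 with MK801, and core and invasive overlapped (exact two-sided permutation p = 0.5). All MK801 ratios lay below the invasive ones (exact permutation p = 0.1, the smallest that 3 against 3 can give) and overlapped core (exact permutation p = 0.3). With the GC trend removed the MK801 ratios, 0.197 to 0.224, lay below those of core (0.230 to 0.317) and of invasive libraries (0.236 to 0.284), with an exact permutation p = 0.1 for each. PSMB9 to PSMB6 was 0.109 to 0.150 in core and 0.135 to 0.173 in invasive libraries and overlapped too (exact permutation p = 0.2). PSMB10 to PSMB7 was 0.0218, 0.0301 and 0.0242 in core, 0.0684, 0.0684 and 0.0422 in the invasive libraries and 0.0378, 0.0194 and 0.0305 with MK801. That ratio separated the invasive libraries from both other groups (exact permutation p = 0.1 in each comparison). With the GC trend removed it overlapped between core (0.0165 to 0.0248) and invasive libraries (0.0235 to 0.0394).

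The 3 subunits were also summed and set against all catalytic transcripts. PSMB8, PSMB9 and PSMB10 together were 13.3, 11.6 and 13.5% of the FPKM of the 6 catalytic subunits in core libraries, 15.6, 14.6 and 15.9% in the invasive ones and 13.4, 12.3 and 10.9% with MK801. The lowest invasive share exceeded the highest of both other groups, which overlapped each other. With the GC trend removed the mean share was 12.05 ± 1.25% for the core group, 12.2 ± 1.28% for the invasive and 10.1 ± 0.251% for the MK801 group (SD, n = 3), so core and invasive no longer separated and the MK801 group was lowest.

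**Figure D4:**
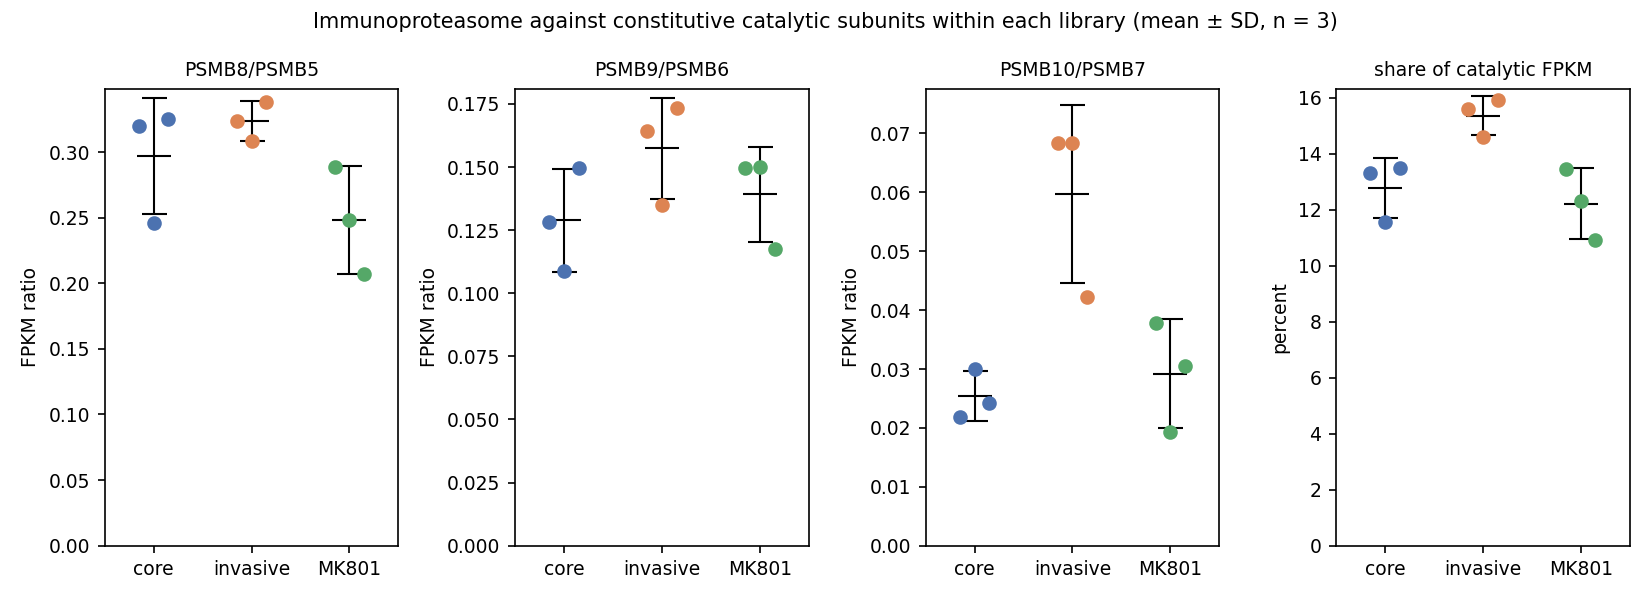
Ratio of each immunoproteasome subunit to the constitutive subunit it replaces, and the immunoproteasome share of the FPKM of the 6 catalytic subunits, per library, with the mean ± SD of n = 3. The invasive points stand apart from the core points for PSMB10 to PSMB7 and for the share, and overlap them for the other ratios.

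The promoters of PSMB8, PSMB9, PSMB10 and the interferon-inducible activator PSME2 are shown because all 4 separated invasive from core libraries, and the motifs were chosen after the values were seen. The 100 bases before the first listed start of each (RefSeq, GRCh38.p14, 5′ to 3′ on the gene's strand) carry in capitals each match to GAAANNGAAA, the core of the interferon-stimulated response element.
PSMB8 (chr6:32844680-32844779, minus strand): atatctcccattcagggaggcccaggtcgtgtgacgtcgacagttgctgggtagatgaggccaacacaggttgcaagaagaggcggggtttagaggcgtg
PSMB9 (chr6:32854092-32854191, plus strand): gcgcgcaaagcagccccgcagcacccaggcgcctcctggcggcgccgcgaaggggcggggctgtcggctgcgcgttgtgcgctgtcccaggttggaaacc
PSMB10 (chr16:67936851-67936950, minus strand): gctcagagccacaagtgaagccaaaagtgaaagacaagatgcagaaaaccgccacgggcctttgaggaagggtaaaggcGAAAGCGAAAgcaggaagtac
PSME2 (chr14:24146611-24146710, minus strand): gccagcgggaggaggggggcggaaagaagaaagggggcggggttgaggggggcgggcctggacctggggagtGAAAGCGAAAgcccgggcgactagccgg
PSMB10 and PSME2 hold the same 10 letters, GAAAGCGAAA, beginning 21 and 28 bases before the start. RefSeq windows of 300 bases, 250 before and 50 after the start, were found for 42 of the 48 members. Searched on both strands, GAAANNGAAA was in 6 of the 42 (14.3%; PSMA4, PSMB4, PSMB10, PSME1, PSME2 and PSMG4), against 3.65% of 27305 promoters. None of those 6 held TTCNNNGAA, the interferon gamma activated site, which was in 5 members (11.9%, against 7.88%). TGACNNNGC, the antioxidant response element bound by the NFE2 family, which includes the proteasome regulator NFE2L1, was in 13 (31.0%, against 13.6%), and CCAAT, the NF-Y site, in 19 (45.2%, against 35.7%). Of the 6 with GAAANNGAAA, PSMA4 was lower in invasive than in core libraries and PSMG4 overlapped. A match describes the letters only and is not evidence of binding.

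The constitutive beta subunits as a class had higher FPKM in invasive libraries, by an amount that depended on the scaling. All 7 differences were above 0, with a median of 0.72, and 6 of the 7 groups did not overlap, against 32% of all genes wholly above core. After quantile normalization 6 were above 0, with a median of 0.22, and with the number of detected genes as a covariate 5 were, with a median of 0.10. In limma-voom 6 were above 0, with a median of 0.42 (0.78 relative to all genes). PSMB2, a structural subunit, was at 22.2, 19.7 and 18.2 FPKM in the core libraries, 36.1, 40.4 and 34.6 in the invasive ones and 41.5, 27.2 and 19.2 with MK801 (log2 difference 0.85, SE 0.27, adjusted p = 0.106). PSMB3, another, was at 58.2, 47.7 and 45.9 FPKM in the core libraries, 98.9, 144 and 119 in the invasive ones and 185, 79.6 and 43.1 with MK801 and had the largest difference of the class (1.23, SE 0.44, limma adjusted p = 0.108). In both genes every invasive library was above every core library. PSMB4 was at 167 ± 23.1 FPKM in invasive against 106 ± 11.7 in core libraries. PSMB1 was the exception, at 45.8, 46.5 and 45.02 FPKM in core and 48.1, 46.9 and 45.01 in invasive libraries, which overlapped (log2 difference 0.03, SE 0.22, adjusted p = 0.928). With the GC trend removed all 7 stayed above 0 with a median of 0.53.

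The alpha ring did not follow the beta ring. Of its 5 tested members 1 had a difference above 0, with a median of -0.34, and after quantile normalization, in limma-voom and with the detected-gene covariate 0 did. PSMA3 (ENSG00000100567, chromosome 14, 58244831 to 58272012) was at 8.45, 7.24 and 11.04 FPKM in the core libraries, 4.002, 2.56 and 6.09 in the invasive ones and 2.70, 3.51 and 6.66 with MK801 (log2 difference -0.96, SE 0.33, adjusted p = 0.106 for invasive against core). All invasive libraries were below all core libraries, and so were all MK801 libraries. PSMA4 was at 9.30, 7.98 and 10.2 FPKM in the core libraries, 5.15, 3.19 and 6.52 in the invasive ones and 1.83, 3.91 and 7.39 with MK801, with the same separation. PSMA7, the most abundant alpha gene, was above core in every invasive library, at 120.5 ± 2.42 against 100.2 ± 13.7 FPKM (log2 difference 0.27, SE 0.29). PSMA1 and PSMA5 overlapped between the fractions, at 3.43 ± 0.743 against 4.58 ± 0.668 and 11.7 ± 1.02 against 12.4 ± 0.731 FPKM. Once the GC trend was removed the class median was -0.04. PSMA3 and PSMA4 then overlapped between the fractions, and so did PSMA7, whose difference turned to -0.017. PSMA5, the member with the second-lowest GC content of those tested (37.2%), stood above core with a difference of 0.67.

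The core-particle and regulatory subunits were also summarised by particle. The 12 tested alpha and constitutive beta genes had a median difference of 0.42 with 8 above 0, and the 17 ATPase and non-ATPase genes one of 0.20 with 10 above 0, against 1.08 for the immunoproteasome. These medians were near 0 under some alternatives. After quantile normalization they were -0.061 for the core particle and -0.00063 for the regulatory genes, with the detected-gene covariate -0.090 and 0.042. In limma-voom they were 0.11 and -0.11, but relative to the median of all genes 0.47 and 0.24, beside 0.44 and 0.23 in the 9-library fit.

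The ATPase ring split evenly. PSMC3, PSMC4 and PSMC5 were higher in all invasive than in all core libraries, against 32% of all genes. PSMC1, PSMC2 and PSMC6 were lower, against 32.8% of all genes. These ATPases sit in 1 ring in equal number and unfold the substrate. PSMC4 (ENSG00000013275, chromosome 19, 39971005 to 39981441) was at 76.0, 86.1 and 65.0 FPKM in the core libraries, 118, 166 and 109 in the invasive ones and 186, 117 and 78.5 with MK801 (log2 difference 0.77, SE 0.33, adjusted p = 0.123). PSMC2 was at 12.6, 14.1 and 15.6 FPKM in the core libraries, 8.13, 6.06 and 10.7 in the invasive ones and 4.64, 8.55 and 12.7 with MK801 (log2 difference -0.72, SE 0.32, adjusted p = 0.128). PSMC6 (ENSG00000100519, chromosome 14, 52707172 to 52728587) had the lowest FPKM of the ring. It was at 4.55, 4.48 and 6.64 FPKM in the core libraries, 2.09, 1.25 and 3.25 in the invasive ones and 0.321, 1.14 and 4.37 with MK801. The higher trio had a GC content of 52.1 to 56.2% and the lower trio one of 36.8 to 48.7%. The same count of 3 above and 3 below 0 was found with the GC trend removed, after quantile normalization and in limma-voom, but with the GC trend removed PSMC2 and PSMC6 overlapped between the fractions (differences -0.03 and -0.24).

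Of the 11 non-ATPase subunits 7 had differences above 0 (5 after quantile normalization and in limma-voom). The invasive group lay wholly above core for 5 and wholly below it for 3, against 32% and 32.8% of all genes. PSMD3 was at 35.8, 39.6 and 30.0 FPKM in the core libraries, 59.0, 82.8 and 55.8 in the invasive ones and 95.7, 65.8 and 38.7 with MK801 (log2 difference 0.88, SE 0.33, adjusted p = 0.110), and PSMD8 at 104 ± 27.7 against 58.1 ± 7.30 FPKM. Both are lid subunits, and their invasive libraries were above all core libraries, as were those of PSMD2, PSMD13 and the ubiquitin receptor PSMD4. In the other direction, PSMD12, also a lid subunit, was at 14.3, 18.2 and 18.2 FPKM in the core libraries, 6.84, 10.48 and 10.9 in the invasive ones and 6.99, 9.27 and 17.7 with MK801 (log2 difference -0.80, SE 0.32, adjusted p = 0.115). PSMD14, the deubiquitinase that cuts ubiquitin chains from substrates, was at 7.56, 7.73 and 7.83 FPKM in the core libraries, 4.77, 3.67 and 5.39 in the invasive ones and 2.52, 3.47 and 6.58 with MK801 (log2 difference -0.65, SE 0.28, adjusted p = 0.123). The core values of PSMD14 lay within a narrow range, and all invasive and MK801 values were below them. PSMD7, which pairs with PSMD14, was at 21.2 ± 1.65 against 26.1 ± 3.67 FPKM and was likewise lower throughout, while PSMD1, PSMD6 and PSMD11 overlapped. PSMD14 also stayed below core with the GC trend removed (-0.34), and PSMD12 did not (-0.07). Of the 5 above core, PSMD8 (0.26) and PSMD4 (0.15) overlapped core with that trend removed, and PSMD4 turned to -0.15 with the detected-gene covariate.

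Activators and the inhibitor were mostly higher in the invasive fraction. PSME1 (ENSG00000092010, chromosome 14, 24136158 to 24138967) and PSME2 (ENSG00000100911, chromosome 14, 24143362 to 24147570), which form the interferon-inducible activator and lie next to each other, were at 46.9, 47.5 and 33.1 FPKM in the core libraries, 79.5, 85.5 and 71.7 in the invasive ones and 109, 64.4 and 35.4 with MK801 and at 7.83, 6.26 and 8.66 FPKM in the core libraries, 12.3, 12.4 and 12.2 in the invasive ones and 17.6, 8.93 and 7.81 with MK801. Each separated invasive from core libraries (log2 differences 0.89 and 0.64, SE 0.36 and 0.28, limma adjusted p = 0.118 and 0.127), though with the GC trend removed PSME2 overlapped (0.08). The ratio of PSME2 to PSME1 was 0.167, 0.132 and 0.262 in core and 0.155, 0.145 and 0.170 in invasive libraries (exact permutation p = 0.8). PSME3, the nuclear activator, was at 31.2, 30.9 and 25.2 FPKM in the core libraries, 52.4, 58.4 and 46.2 in the invasive ones and 54.6, 41.8 and 28.9 with MK801 (log2 difference 0.82, SE 0.26, adjusted p = 0.106). PSME4, which caps the core particle independently of ubiquitin, went the other way, at 6.98, 7.55 and 7.27 FPKM in core and 4.37, 2.68 and 4.62 in invasive libraries (log2 difference -0.78, SE 0.40). Its sign was lost with the detected-gene covariate (0.02), and its groups overlapped with the GC trend removed (-0.22). PSMF1, the inhibitor PI31, was at 17.1, 19.5 and 14.6 FPKM in the core libraries, 27.4, 45.5 and 22.8 in the invasive ones and 46.0, 29.1 and 16.3 with MK801 (log2 difference 0.81, SE 0.37, adjusted p = 0.134), with core and invasive libraries apart. The detected-gene covariate lowered the differences of PSME1, PSME2, PSME3 and PSMF1 to 0.24, 0.25, 0.43 and 0.10.

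The 7 assembly chaperones are given by the particle they build. Of the chaperones of the core particle, PSMG3 (ENSG00000157778, chromosome 7, 1567330 to 1571005) was at 13.1, 11.9 and 9.98 FPKM in the core libraries, 28.9, 24.8 and 22.7 in the invasive ones and 40.2, 21.5 and 13.8 with MK801 (log2 difference 1.06, SE 0.33, adjusted p = 0.106). Its invasive libraries were all above its core libraries, whereas PSMG1, PSMG2 and PSMG4 overlapped, with differences of 0.07, 0.06 and 0.05 whose sign depended on the scaling. PSMG1 and PSMG2 act as a pair and PSMG3 and PSMG4 as another. The members of the second pair thus differed from each other in their invasive against core difference. Their means over the 9 libraries were 20.8 and 2.00 FPKM, but 29.3 and 24.8 when divided by the length of the principal transcript. Among the chaperones of the base, PSMD10 (gankyrin) was at 28.0, 34.1 and 31.0 FPKM in core and 17.4, 26.6 and 20.2 in invasive libraries and PSMD5 at 7.23, 6.83 and 8.04 and 4.62, 3.53 and 6.52, all invasive values below all core values. PSMD9 overlapped, its invasive mean being 1.31 ± 0.268 FPKM and its core mean 1.21 ± 0.321 FPKM. PSMD10 and PSMD5 overlapped too once the GC trend was removed (0.03 and 0.04).

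The next comparison set cells of MK801-treated devices against core cells of control devices. The MK801 libraries spread too widely for the groups to separate for most members: 2 (PSMB6 and PSMG3) lay wholly above core, against 9.89% of all genes, and 6 (PSMA3, PSMA4, PSMC6, PSMD5, PSMD10 and PSMD14) wholly below, against 8.82%. In the 9-library fit 0 members and 0% of all genes passed. At an unadjusted p under 0.05 there were 3 members higher and 8 lower, against 10.6% of all genes in each direction, and limma-voom called 0 genes. The median difference was 0.25 with 28 of 44 above 0 (50.3% of all genes were), beside 0.0047 for all genes, and it was -0.045 after quantile normalization, -0.0027 with the detected-gene covariate and -0.0048 without MK801 replicate 1. In limma-voom it was -0.018, where the median of all genes was -0.25, so relative to all genes it stood at 0.23 there and at 0.25 in the 9-library fit. Without MK801 replicate 3 the fit called 27 members, against 51.1% of all genes. In all 9 libraries and with a filter of 5 FPKM, the median difference of all genes was 0.23.

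The members with the smallest p were lower with MK801. PSMD14 was at 4.19 ± 2.12 against 7.71 ± 0.136 FPKM (log2 difference -0.82, SE 0.28, adjusted p = 0.235), and PSMC6 at 1.94 ± 2.14 against 5.22 ± 1.22 (log2 difference -1.31, SE 0.45). PSMA3 and PSMA4 had differences of -0.96 (SE 0.33) and -1.05 (SE 0.37). In all 4 genes MK801 replicate 1 was lowest and replicate 3 nearest to core. They are also the 4 members that lay wholly below core with the GC trend removed, against 8.3% of all genes (-0.60, -0.66, -0.43 and -0.61). With that trend removed 2 members, PSMG3 and PSMD3, lay wholly above, against 8.41% of all genes. The 4 genes were also low in the invasive fraction, but both comparisons share the core libraries. On the other side PSMG3 was at 25.2 ± 13.6 against 11.7 ± 1.59 FPKM (log2 difference 0.93, SE 0.33, adjusted p = 0.235), apart from core by the distance between 13.1 and 13.8 FPKM. PSMD3 (log2 difference 0.82, SE 0.33) and PSMB5 (0.75, SE 0.33) overlapped core through MK801 replicate 3.

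No immunoproteasome subunit separated MK801 from core libraries. The differences were 0.48 for PSMB8 (SE 0.37), 0.88 for PSMB9 (SE 0.41) and 0.52 for PSMB10 (SE 0.42), with limma adjusted p of 0.371, 0.235 and 0.386. MK801 replicate 1 was the highest of its group for all 3, at 46.8, 22.3 and 6.67 FPKM, while replicate 3 was at 13.5, 5.08 and 1.74. Their median difference of 0.52 was 0.020 without MK801 replicate 1 and 0.88 without MK801 replicate 3. With the detected-gene covariate PSMB8 turned to -0.050 and PSMB10 to -0.047.

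The last comparison set the MK801 pool against the invasive fraction of control devices, and here the members were lower with MK801 in most cases but by little. Of 44 differences 33 were below 0, with a median of -0.11 beside -0.0020 for all genes, and 11 above 0 (49.8% of all genes were). Without MK801 replicate 3 that median was 0.030. A single member, PSMD7, lay wholly above the invasive group, against 5.22% of all genes, and a single one, PSMD1, wholly below, against 5.63%. By the 9-library fit 0 members and 0% of all genes passed, at an unadjusted p under 0.05 there were 0 higher (3.75% of all genes) and 1 lower (4.51%), and limma-voom called 0 genes. PSMD1 (ENSG00000173692, chromosome 2, 231056864 to 231172827), a large scaffold subunit of the base, was at 9.42, 6.52 and 9.61 FPKM in the core libraries, 8.87, 9.95 and 10.8 in the invasive ones and 6.55, 6.07 and 7.56 with MK801 (log2 difference -0.49, SE 0.21, adjusted p = 0.564). PSMD7 was at 19.4, 22.6 and 21.5 FPKM in that control fraction and at 36.3, 23.2 and 28.4 FPKM with MK801 (log2 difference 0.43, SE 0.23, adjusted p = 0.715), and with the GC trend removed it overlapped. PSMB10 had the largest difference, -0.83 (SE 0.42, limma adjusted p = 0.694), with MK801 replicate 1 inside the invasive range and the other two below it. PSMB2 (-0.39) and PSME3 (-0.36) overlapped, and the small positive differences of PSMA1 (0.21), PSMG4 (0.16) and PSMA5 (0.12) turned negative when MK801 replicate 1 and invasive replicate 2 were left out.

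The members' differences were ordered by the GC content of their transcripts, a property of the library as well as of the gene. Over the 44 tested members the Spearman correlation of GC content with the invasive-against-core difference was 0.810, and with the trend of each library over all genes removed it was 0.379. These 44 points share the same 6 libraries, and the members' GC content itself had a Spearman correlation of -0.427 with gene length and 0.413 with mean FPKM. The difference had one of -0.542 with gene length and 0.557 with mean FPKM, and of -0.483 and 0.555 with the GC trend removed. All 23 members with at least 50% GC had differences above 0, with a median of 0.77, whereas 7 of the 21 below 50% did, with a median of -0.34. For MK801 against core the correlation was 0.825, and 0.411 with the trend removed, and for MK801 against invasive it was -0.236. The classes differ in this property: the median GC content was 42.1% in the alpha ring, 51.8% among constitutive beta subunits and 56.1% in the immunoproteasome. With the trend removed 23 members lay wholly above the core group in invasive libraries, against 21.8% of all genes, and 4 wholly below, against 20.5%. The 23 above were not the same set as before. PSMA7, PSMD4, PSMD8 and PSME2 no longer separated, whereas PSMA5, PSMB1, PSMD1 and PSMD11 now did. Those below were PSMC1, PSMD14, PSMG2 and PSMG4, so the groups of 2 of the members named above as lower, PSMC1 and PSMD14, stayed apart. The part of GC content in the differences that remained was not tested.

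**Figure D5:**
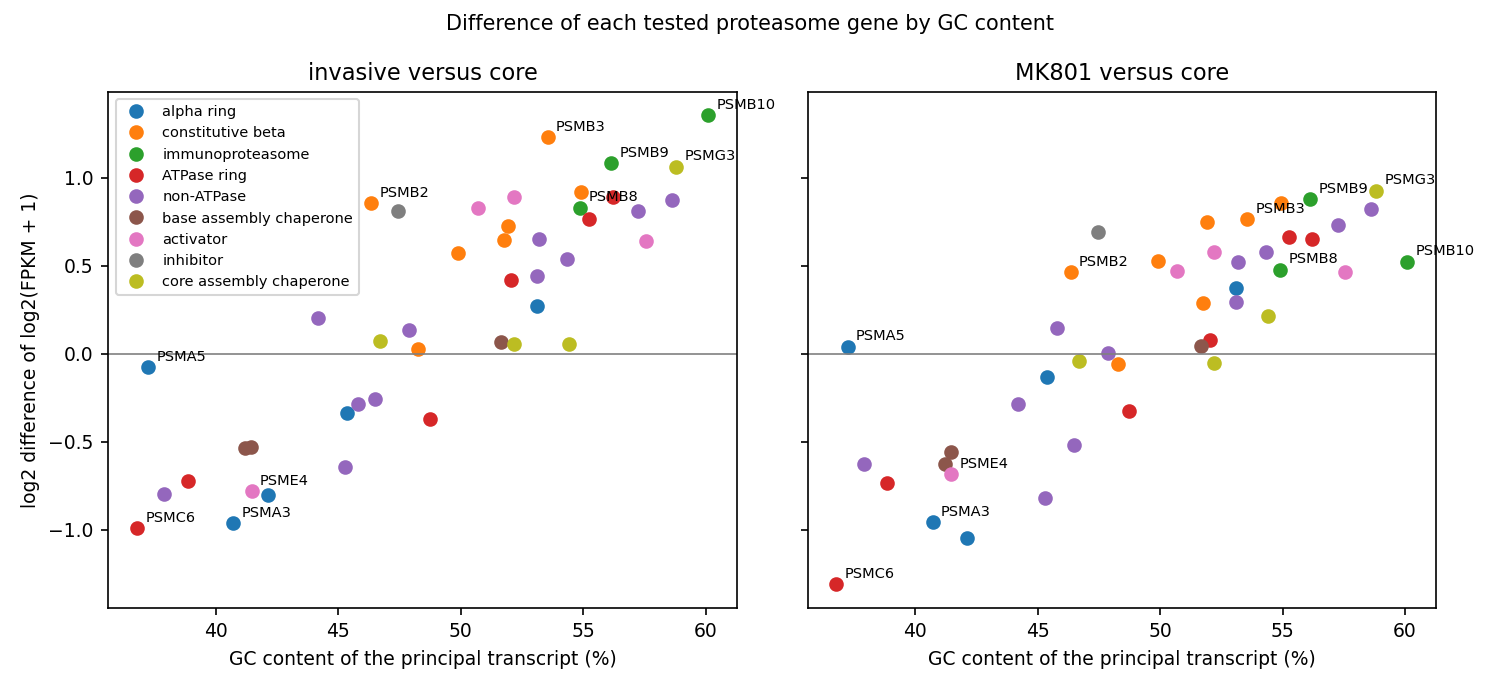
Difference of each tested member on the log2(FPKM + 1) scale (vertical axis) by the GC content of its principal transcript (horizontal axis, percent), coloured by class, for invasive against core (left) and MK801 against core (right). Points rise from PSMC6 at the lower left to the immunoproteasome subunits and PSMG3 at the upper right in the left panel; both panels share the core libraries.

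Other genes of the pathway were taken as lists. None of the genes of the 4 lists passed the threshold in any of the 3 comparisons. Of 12 proteasome-associated genes, 3 were above and 9 below 0 in invasive against core (median -0.38, and 0.11 with the GC trend removed). Of these 1 lay wholly above core and 7 wholly below, against 32% and 32.8% of all genes. The 1 above was ADRM1, the ubiquitin receptor of the base, at 52.9, 62.9 and 35.3 FPKM in the core libraries, 87.2, 114 and 76.6 in the invasive ones and 156, 94.8 and 54.1 with MK801. SEM1, the smallest lid subunit, was among those below, at 1.78 ± 0.459 against 3.05 ± 0.222 FPKM (log2 difference -0.56, limma adjusted p = 0.112). POMP, the maturation factor of the core particle, was at 55.2, 62.6 and 67.9 FPKM in the core libraries, 45.04, 70.1 and 42.6 in the invasive ones and 77.6, 44.9 and 53.7 with MK801, and the fractions overlapped.

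Regulators of proteasome genes were mixed. Of 10, 4 were above and 6 below 0, with a median of -0.45 (-0.26 with the GC trend removed), and 2 lay wholly above core and 6 wholly below, against 32% and 32.8% of all genes. NFE2L1, the transcription factor that raises proteasome genes when proteasome activity is short, was at 38.4, 37.9 and 32.4 FPKM in the core libraries, 47.2, 45.8 and 38.7 in the invasive ones and 48.4, 57.2 and 37.8 with MK801. NGLY1, the glycanase that activates NFE2L1, was at 8.47, 12.8 and 9.90 FPKM in the core libraries, 3.46, 4.28 and 5.16 in the invasive ones and 3.29, 5.34 and 9.64 with MK801 (invasive against core -1.10, limma adjusted p = 0.106), and DDI2, the protease that cleaves it, at 3.24, 3.26 and 3.72 FPKM in the core libraries, 1.56, 1.31 and 2.00 in the invasive ones and 0.373, 2.78 and 4.76 with MK801. NFE2L1 was thus above core in all invasive libraries, though only by the distance between 38.4 and 38.7 FPKM, and both processing enzymes were below. Whether these levels are linked was not tested. MAFK, one of its small dimer partners, was at 16.1, 21.0 and 12.1 FPKM in the core libraries, 22.4, 28.4 and 17.7 in the invasive ones and 36.4, 46.0 and 29.3 with MK801 and had the smallest p of these lists in MK801 against core (log2 difference 1.15, limma adjusted p = 0.235).

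Of 14 tested ubiquitin and shuttle genes, 10 were above 0 in invasive against core (median 0.53, and 0.31 with the GC trend removed), with 7 wholly above core and 4 wholly below, against 32% and 32.8% of all genes. UBA1, the main ubiquitin-activating enzyme, was at 34.3, 29.6 and 26.4 FPKM in the core libraries, 62.6, 105 and 54.6 in the invasive ones and 71.4, 53.5 and 25.4 with MK801 (1.22, limma adjusted p = 0.106). UBA6, the other activating enzyme, was at 4.72, 7.45 and 8.19 FPKM in the core libraries, 1.93, 2.16 and 2.31 in the invasive ones and 1.15, 2.74 and 7.82 with MK801, in the opposite direction. Likewise the polyubiquitin gene UBB was at 349 ± 129 against 171 ± 32.1 FPKM, while RPS27A, which encodes ubiquitin fused to a ribosomal protein, was at 84.1 ± 11.5 against 151 ± 20.4.

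Partners of the immunoproteasome in antigen presentation did not share 1 direction. Of 12 tested interferon-induced genes, PSME1 and PSME2 among them, 7 were above and 5 below 0 (median 0.23, and 0.11 with the GC trend removed), with 5 wholly above and 1 wholly below core, against the same shares. TAP1, the peptide transporter subunit whose gene lies head to head with PSMB9, was at 14.001, 15.5 and 12.4 FPKM in the core libraries, 24.8, 27.1 and 25.5 in the invasive ones and 41.6, 28.4 and 15.5 with MK801 (0.84, limma adjusted p = 0.109). TAPBP, which bridges the transporter to MHC class I, was at 23.4, 21.0 and 18.2 FPKM in the core libraries, 32.1, 32.4 and 31.0 in the invasive ones and 34.0, 42.6 and 26.5 with MK801. Both were above core in all invasive libraries, and IRF1, a transcription factor that can induce immunoproteasome genes, was at 0.958, 1.24 and 1.37 FPKM in core and 3.19, 2.82 and 2.05 in invasive libraries. In the opposite direction, B2M, the light chain of MHC class I, was at 179, 157 and 159 FPKM in the core libraries, 133, 79.2 and 139.6 in the invasive ones and 70.2, 83.2 and 115 with MK801. NLRC5, the class I transactivator, was at 2.07 ± 0.593 against 1.30 ± 0.326 FPKM, and TAP2 at 4.34 ± 0.403 against 4.46 ± 0.857.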

How the data were processed

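RNA of 9 GBM43 libraries (3 core, 3 invasive, 3 MK801) was sequenced. The deposited values are FPKM per gene with the gene length beside them. HISAT2 2.0.5, featureCounts 1.5.0-p3 and the build GRCh38 are named, per the submitters' processing notes; settings and strand are not given in the sources used here. GC content, principal transcripts and shared exons came from GENCODE release 29, whose identifiers and coordinates fit 100.0% of the genes. Depths were read from the smallest steps of FPKM times length, of which 100% of values were whole multiples within 0.01 fragments. The total the authors divided by was 1.10 to 1.23 times the recovered gene total in core, 0.788 to 1.06 in invasive and 0.769 to 1.19 in MK801 libraries.

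Limma 3.58.1 (R 4.3.3) fitted log2(FPKM + 1), pseudocount 1 FPKM, with 1 mean per group over all 9 libraries (6 residual degrees of freedom), empirical Bayes with trend, and Benjamini-Hochberg over 11845 genes with at least 1 FPKM in at least 3 libraries; the threshold was 0.05. The script was tested on simulated data. The GC alternative subtracted in each library a loess curve (span 0.3) of expression on GC content, known for 99.97% of tested genes. Ratios were tested by exact two-sided permutation. Described in full are the catalytic subunits and their counterparts, PSMA8, PSMB11, PSME1, PSME2 and, per comparison, the 4 higher and 4 lower members with the smallest p; each class's highest and lowest members are named, and up to 4 genes of each pathway list. UBB, UBA6, DDI2, POMP, NFE2L1, B2M, NLRC5 and TAP2, and other members named for their direction, were chosen after their values were seen. The members and lists were chosen with earlier results of these data known. Promoters came from RefSeq (GRCh38.p14). Python 3.11.15, pandas 2.3.3 and scipy 1.17.1 were used for the rest.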

Additional observations from a re-analysis of the deposited data

How the results depend on the processing

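Alternatives were pseudocounts of 0.1 and 0.5, no filter or 5 FPKM, median-of-ratios or quantile scaling, the groups alone, a replicate block, removal of the GC trend, detected genes as a covariate, limma-voom, protein-coding genes only and leaving out libraries. Count-model tests other than limma-voom were planned but not run, since the deposited unit is not a count. Of the values that answer a comparison 346 stayed within their spread or count limit and 29 moved; of the gene differences 659 kept their direction and call, 49 became called and 9 reversed. The cause of each move was not tested.

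For invasive against core, the members called were 0 in the 9-library fit, 29 with the groups alone (52.2% of all genes), 7 with the replicate block (21.3% of all genes, above the members' share), 9 with the GC trend removed and the groups alone (17.1%), and 0 to 25 leaving out 1 library (25 without MK801 replicate 1, 23 without MK801 replicate 3, against 39.9% and 42.1% of all genes). For MK801 against core they were 0 to 27 leaving out 1 library, 27 without MK801 replicate 3, against 51.1%. The column names give core and invasive libraries the same numbers, and MK801 libraries too. The labels do not say whether a number marks a shared device or anything else shared, so a pairing is possible and was not assumed. Same-numbered libraries deviated together unevenly (correlation -0.007 for core and invasive 1, 0.243 for 2, 0.445 for 3). Among invasive libraries core replicate 1 went best with invasive replicate 2. With the MK801 library of the same number the correlation was 0.414, 0.0438 and 0.585 for core 1, 2 and 3. For invasive 1, 2 and 3 it was -0.150, 0.0344 and 0.608. The block called 7 members in invasive against core, 0 in the other comparisons, and 0 with the GC trend removed (0.27% of all genes in invasive against core).

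The invasive against core median of 0.34 was 0.20 with no filter and 0.49 with the 5 FPKM filter (0.24 for all genes). It was 0.084 with quantile scaling, 0.059 with the covariate and 0.037 in limma-voom (0.39 relative to all genes). For the core particle it was 0.15 with no filter, -0.061 with quantile scaling, -0.090 with the covariate and 0.11 in limma-voom; for regulatory genes -0.00063, 0.042 and -0.11 under the last 3; for the immunoproteasome 0.59 in the 3 fits with the GC trend removed, replicate block included, and 0.30 with the covariate. The MK801 against core median was -0.045 with quantile scaling, -0.0027 with the covariate, -0.018 in limma-voom and -0.0048 without MK801 replicate 1, with or without invasive replicate 2; leaving out 1 library it ranged from -0.0048 to 0.44. With the GC trend removed the mean immunoproteasome share was 12.2% in invasive and 10.1% in MK801 libraries.

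Reversed were, in MK801 against core, PSMB8 (-0.050) and PSMB10 (-0.047) with the covariate. In MK801 against invasive, leaving out 1 library, PSMB8 ranged from -0.81 (without MK801 replicate 1) to 0.049 (without MK801 replicate 3), PSMB9 from -0.76 to 0.21 likewise, PSMG4 from -0.048 (without MK801 replicate 1) to 0.27 and PSMA5 from -0.0041 (likewise) to 0.30, and PSMA1 (-0.083), PSMG4 (-0.10) and PSMA5 (-0.071) reversed without MK801 replicate 1 and invasive replicate 2. Depth limits PSMA8, PSMB11, PSMA6, PSMA2, PSMC6 and PSMB10, whose lowest libraries held 0, 0, 12, 14, 34 and 47 fragments.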
